A study of Homo sapiens with 12 samples.

Results

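The SRSF genes and the HNRNP genes encode the best-known RNA-binding regulators of pre-mRNA splicing, and their mRNA was followed here through 48 h of sirtuin inhibition in a leukemia line. Members were all protein-coding genes of the deposited table whose symbol is SRSF with a number or begins with HNRNP. This gave 35 genes, 11 SRSF and 24 hnRNP, among 18729 protein-coding genes and 51112 rows in all. The libraries came from K-562, an established human chronic myeloid leukemia line carrying the BCR-ABL1 fusion. The groups were K-562 cells left untreated and K-562 cells kept in 5 µM Si-711, an inhibitor of sirtuins 1 and 2, for 8, 24 or 48 h, and each of the 4 groups has 3 independently grown replicates. The design has neither vehicle-treated cells nor untreated cells sampled at later times, so exposure and time in culture cannot be told apart. All groups are 1 cell line in the same serum-containing medium.

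SR proteins carry RNA-recognition motifs and a tail rich in arginine and serine, bind exonic enhancers and help the spliceosome choose a splice site. HnRNP proteins coat nascent transcripts, and many of them, with HNRNPA1 as the textbook case, repress splice sites and oppose SR proteins. The balance between the families is a classical determinant of alternative splicing. Many of these genes also limit their own output through a poison exon, an alternative exon that sends the transcript to nonsense-mediated decay. In the GENCODE release 29 annotation, all 11 tested SRSF genes and 13 of the 22 tested hnRNP genes (59.1%) have at least 1 transcript annotated to that decay, against 43.3% of 12619 tested protein-coding genes. The table gives 1 value per gene, so productive and decay-bound transcripts are summed in every value below.

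Values are normalized counts, that is gene counts which the authors scaled between libraries. They summed to 27070528 to 37117837 per library, and the smallest steps in the values corresponded to about 24566498 to 40420203 reads per library. The treated library of replicate 1 at 24 h stood apart from its group, with a first principal component of 20, against -10.1 and -8.7 in the other 24 h libraries. It was the lowest of the 3 libraries at 24 h for 7 of 10 SRSF and 19 of 21 hnRNP members with a mean of at least 50 normalized counts. The same share over all genes was not computed, so these counts are not specific to the members. The cells are labelled lymphoblast. All 10 erythroid markers of K-562 reached 10 normalized counts in every untreated library, whereas only 4 of 10 lymphoid markers did, and CD8A and MS4A1 averaged under 1 normalized count in every group. The summed erythroid markers were 315448 to 570632 normalized counts in untreated cells. After treatment they were 72659 to 96988 (8 h), 86316 to 93094 (24 h) and 130749 to 132195 (48 h). The summed lymphoid markers were 187 to 360.5, 719 to 1040, 418 to 706 and 498 to 619 normalized counts in the same order. The part of these shifts in the results below was not tested, and in bulk RNA fewer cells of a type and less RNA per cell cannot be told apart.

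Genes of both families fell at 8 and 24 h, and most of the members called at 48 h were lower than in untreated cells. Of the 33 members that passed the filter on low values, 11 SRSF and 22 hnRNP, 7 SRSF and 10 hnRNP genes fell at 8 h and none rose (limma, Benjamini-Hochberg adjusted p under 0.05 over 15424 genes, as throughout). Of all genes tested, 28.2% were called at 8 h, 13% as rises and 15.2% as falls. The 8 h calls were small and depended on the scaling, since with equal library totals 2 SRSF and 2 hnRNP genes were called. Over all 15424 genes, equal totals called 3970 at 8 h, 2887 as rises and 1083 as falls. Without any single untreated or 8 h library, 4 to 7 hnRNP genes were called, the fewest without untreated replicate 3.

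At 24 h, 6 of 11 SRSF and 13 of 22 hnRNP genes fell and none rose, while over all genes 47.6% were called, 22.9% as rises and 24.7% as falls. Equal totals gave 1 rise and 6 falls for SRSF and 2 rises and 11 falls for hnRNP genes, and quantile normalization gave 2 and 6 for SRSF and 2 and 10 for hnRNP. Over all 15424 genes, equal totals gave 4761 rises and 2657 falls at 24 h, and quantile normalization gave 3413 and 3604. The median log2 fold change was -0.65 over the SRSF and -0.45 over the hnRNP members, with 0.02 over all genes. At 48 h, 2 SRSF genes rose and 6 fell, and 2 hnRNP genes rose and 15 fell, with 66.2% of all genes called, 32.3% as rises and 33.8% as falls. Equal totals changed the SRSF split at 48 h to 1 rise and 8 falls, with 4146 rises and 6154 falls over all genes. The 48 h medians were -0.28 for SRSF, -0.55 for hnRNP and -0.05 for all genes, all on the log2 scale against untreated cells. The 3 comparisons with untreated cells share the same untreated libraries.

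In the successive steps, the calls were as follows. Between 8 and 24 h, 1 SRSF gene rose and 6 fell, and 7 hnRNP genes fell, against 18.1% of all genes called, 8.31% as rises and 9.83% as falls. Between 24 and 48 h, 5 SRSF genes rose and 2 fell, whereas 5 hnRNP genes rose and 10 fell, against 52.2% of all genes called, 25.1% as rises and 27.1% as falls. The split of that last step rested on the scaling: equal totals gave 3 rises and 5 falls for SRSF and 2 and 16 for hnRNP, quantile normalization gave 3 and 5 for SRSF and 2 and 17 for hnRNP, and centring on the library median gave 8 and 6 for hnRNP. Over all 15424 genes, that step had 1829 rises and 6607 falls with equal totals. It had 3756 and 3795 with quantile normalization, and 5174 and 3239 with median centring. Equal totals shifted the median log2 fold change of all genes by 0.159 at 8 h, 0.182 at 24 h, -0.190 at 48 h and -0.371 for 48 h against 24 h. Median centring shifted it by -0.137 at 24 h and 0.195 for 48 h against 24 h, and quantile normalization by 0.105 for the last.

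A comparison of the families within each library does not depend on a scaling factor that all genes of the library share. Over members with a mean of at least 50 normalized counts, the median SRSF log2 difference from untreated cells minus the median hnRNP difference was 0.01 ± 0.02 in untreated libraries, -0.11 ± 0.02 after 8 h, -0.30 ± 0.04 after 24 h and 0.20 ± 0.11 after 48 h (SD, n = 3 each). By this median, the SRSF side was lower than the hnRNP side at 8 and 24 h in all 3 libraries of each time. It was higher in all 3 libraries of 48 h, at 0.08, 0.30 and 0.23. Summed over members, the SRSF genes took 0.374% of all normalized counts in untreated cells, 0.327% after 8 h, 0.270% after 24 h and 0.232% after 48 h. The hnRNP genes took 1.25%, 1.14%, 1.01% and 0.861% in the same order. Relative to the hnRNP sum, the SRSF sum was lower at 48 h than in untreated cells, so the sums do not show the 48 h reversal of the medians. These family values are descriptions without a test.

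**Figure D1:**
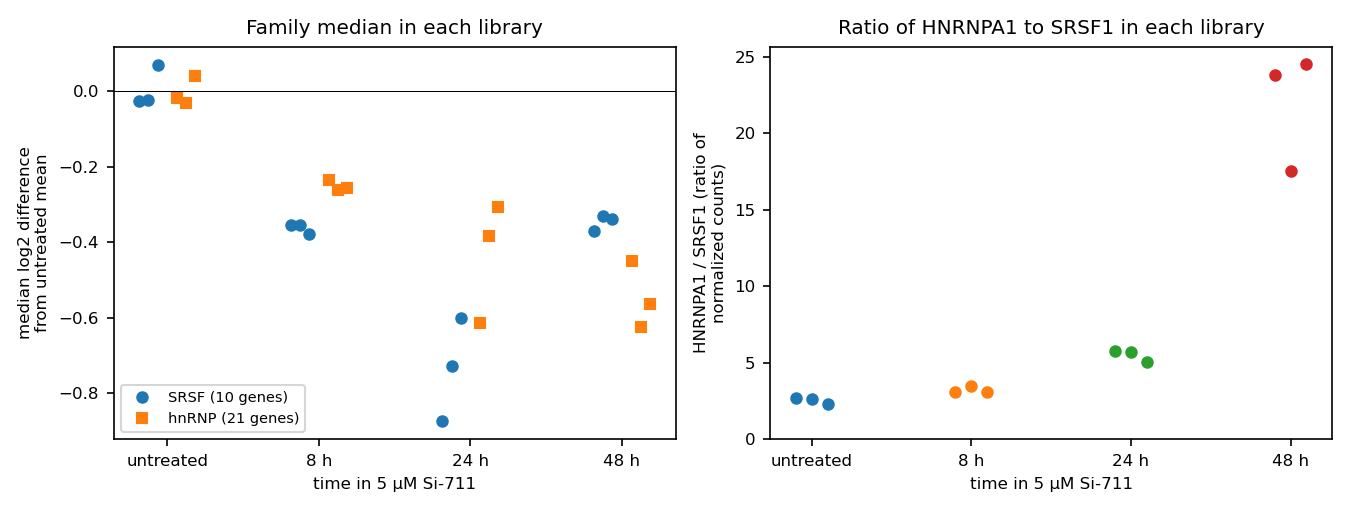
Family medians of the log2 difference from untreated cells (left) and the ratio of HNRNPA1 to SRSF1 (right), with a point per library for untreated cells and for 8, 24 and 48 h in Si-711. The SRSF minus hnRNP difference averages -0.30 at 24 h and 0.20 at 48 h, and the ratio lies between 17.5 and 24.5 at 48 h, above all untreated libraries.

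**Figure D2:**
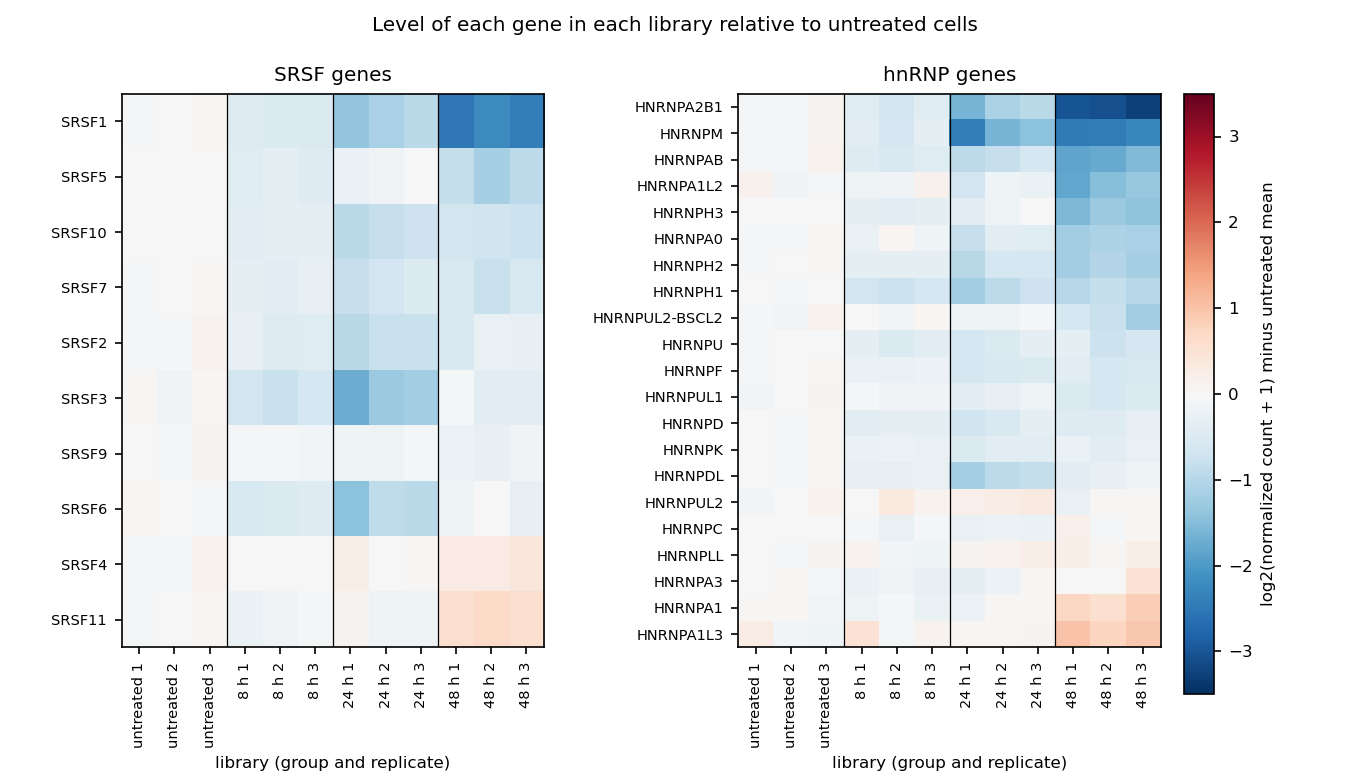
Every member with a mean of at least 50 normalized counts in every library, as the log2 difference from the untreated mean, with untreated libraries first and then 8, 24 and 48 h. The 48 h columns hold both the deepest falls, HNRNPA2B1, HNRNPM and SRSF1, and the rises of SRSF11 and HNRNPA1, of which the HNRNPA1 rise over untreated cells was not called with quantile normalization.

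To show what the genes at the centre of these changes look like at their start, promoters are given from RefSeq on GRCh38.p14. They are those of the SRSF and hnRNP members that fell most, SRSF1, HNRNPA2B1 and HNRNPM, and of SRSF3, which fell and then rose. Each runs 5′ to 3′ on the strand of the gene, from 250 bases before its annotated start to 50 after it. Capitals mark the motifs CACGTG (E-box), CCAAT and TATAAA, read on both strands, so that ATTGG marks a CCAAT box on the opposite strand. The SRSF1 window is chr17:58007197-58007496 on the minus strand, SRSF3 is chr6:36594112-36594411 on the plus strand, HNRNPA2B1 is chr7:26200697-26200996 on the minus strand and HNRNPM is chr19:8444725-8445024 on the plus strand.
SRSF1: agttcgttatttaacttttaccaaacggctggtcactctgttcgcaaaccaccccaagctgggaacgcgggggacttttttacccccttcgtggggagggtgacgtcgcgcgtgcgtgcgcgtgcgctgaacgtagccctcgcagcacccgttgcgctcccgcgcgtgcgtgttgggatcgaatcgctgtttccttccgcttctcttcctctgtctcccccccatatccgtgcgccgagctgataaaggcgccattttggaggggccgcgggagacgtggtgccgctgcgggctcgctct
SRSF3: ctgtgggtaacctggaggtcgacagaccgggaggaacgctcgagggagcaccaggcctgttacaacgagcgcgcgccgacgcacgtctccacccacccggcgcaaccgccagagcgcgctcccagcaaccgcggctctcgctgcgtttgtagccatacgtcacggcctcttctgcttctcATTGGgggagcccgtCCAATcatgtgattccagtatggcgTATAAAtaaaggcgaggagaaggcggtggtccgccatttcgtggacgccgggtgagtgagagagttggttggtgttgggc
HNRNPA2B1: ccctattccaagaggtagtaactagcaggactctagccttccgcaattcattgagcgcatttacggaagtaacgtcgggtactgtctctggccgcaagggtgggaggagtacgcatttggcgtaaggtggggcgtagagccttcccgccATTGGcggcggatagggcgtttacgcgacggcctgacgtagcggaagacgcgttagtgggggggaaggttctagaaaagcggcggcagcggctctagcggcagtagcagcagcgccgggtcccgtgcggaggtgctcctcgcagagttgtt
HNRNPM: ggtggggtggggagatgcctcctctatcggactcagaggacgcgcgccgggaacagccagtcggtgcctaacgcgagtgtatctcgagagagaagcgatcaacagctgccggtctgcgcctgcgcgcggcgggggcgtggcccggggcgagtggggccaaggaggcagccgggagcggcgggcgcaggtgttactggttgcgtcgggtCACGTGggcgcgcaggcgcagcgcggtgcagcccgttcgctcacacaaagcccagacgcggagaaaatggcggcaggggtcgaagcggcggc
The SRSF1 window holds none of the motifs searched. SRSF3 has a CCAAT box beginning at -70 and another at -55, followed by a TATA box at -30, counted from the start. HNRNPA2B1 has 1 CCAAT box at -101, and HNRNPM has 1 E-box at -42.

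Promoters were found for 10 of 11 SRSF and 22 of 24 hnRNP members. Some genes have several annotated starts, so these genes gave 12 SRSF and 32 hnRNP windows, and shares are of windows. CCAAT stood in 19 of the 32 hnRNP windows (59.4%) and in 1 of the 12 SRSF windows (8.33%), that of SRSF3, with 34.6% of 35116 promoter windows of the same length. CACGTG stood in 8 hnRNP windows and 0 SRSF windows, with 7.26% of all. GGGCGG, the GC box, stood in 21 hnRNP windows and 6 SRSF windows, with 44.95% of all. TATAAA stood in 3 hnRNP and 3 SRSF windows (11.5% of all), CCGGAAG of the ETS factors in 3 hnRNP and 2 SRSF windows (10.3% of all), GCGCATGCG of NRF1 in 1 hnRNP and 2 SRSF windows (1.92% of all), and AAGATGGCG of YY1 in none of either (1.75% of all). HNRNPUL2 and HNRNPUL2-BSCL2 share their start, so they are not independent windows. A match of letters is a description and shows no binding.

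SRSF1, the founding SR protein and a splicing enhancer with oncogenic activity when overproduced, fell further at every step. SRSF1 (ENSG00000136450, chromosome 17, 58003360 to 58007346, minus strand, GRCh38) had 23764, 24941 and 25978 normalized counts in untreated libraries, 18028, 17394 and 17359 at 8 h, 9547, 11399.9 and 13046 at 24 h, and 4349.8, 5272 and 4665 at 48 h. No library of any time overlapped the group before it. The log2 fold change against untreated cells was -0.50 ± 0.10 (SE) after 8 h (limma adjusted p = 0.00343), -1.15 ± 0.10 after 24 h (limma adjusted p = 3.01e-06) and -2.39 ± 0.10 after 48 h (limma adjusted p = 1.76e-09). SRSF1 was thus 5.24-fold lower at 48 h, the largest fall among SRSF members, and of the SRSF members called as falls at 24 h it alone fell again between 24 and 48 h under the authors' scaling. With quantile normalization the 8 h value was -0.28 and not called.

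SRSF3, SRSF6 and SRSF2 took another course: each fell by 24 h and rose again between 24 and 48 h. SRSF3, the smallest SR protein, which also acts in mRNA export and 3′ end formation, had 13004, 11788 and 13427 normalized counts in untreated libraries, 8194, 7417 and 8373 at 8 h, 3843, 5173 and 5469 at 24 h, and 12132, 9756 and 9727 at 48 h. The 48 h libraries all lay above the 24 h libraries, and one of them lay within the untreated range. The fall at 24 h was -1.41 ± 0.13 (limma adjusted p = 2.79e-06), and the later rise over 24 h was 1.13 ± 0.13 (limma adjusted p = 7.67e-06). The remaining difference of 48 h from untreated cells was -0.28 ± 0.13 (limma adjusted p = 0.0664). With equal totals the later rise was 0.76, and SRSF3 at 48 h was called as a fall against untreated cells.

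SRSF6, a splicing regulator of the same family, had 4993, 4799 and 4597 normalized counts in untreated libraries, 3300.2, 3401 and 3474 at 8 h, 1763, 2570.1 and 2515 at 24 h, and 4344, 4761 and 3926 at 48 h. Here too the 48 h libraries overlapped the untreated ones and not those of 24 h. On the log2 scale the differences were -1.09 ± 0.12 at 24 h against untreated cells (limma adjusted p = 1.53e-05), 0.94 ± 0.12 at 48 h against 24 h (limma adjusted p = 3.19e-05), or 0.57 with equal totals, and -0.15 ± 0.12 at 48 h against untreated cells (limma adjusted p = 0.314). With equal totals SRSF6 too was called as a fall at 48 h against untreated cells.

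SRSF2, a resident of nuclear speckles whose gene is recurrently mutated in myelodysplastic disease, had 18967, 18463 and 21227 normalized counts in untreated libraries, 15993, 14350.4 and 14474 at 8 h, 9957, 11280.0 and 11320.0 at 24 h, and 13595, 16292 and 16014 at 48 h. Its return was partial, since the 48 h libraries lay above those of 24 h and below the untreated ones. The fall was -0.85 ± 0.09 at 24 h (limma adjusted p = 9.06e-06) and -0.36 ± 0.09 at 48 h (limma adjusted p = 0.00343), and the step between 24 and 48 h was 0.49 ± 0.09 (limma adjusted p = 0.000471). That step was 0.12 with equal totals and 0.14 with quantile normalization and was then not called.

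SRSF5 was lowest at 48 h, and its 24 h libraries lay above those of 8 h. SRSF5, an SR protein described as responsive to insulin and growth signals, had 8818, 8719.6 and 8617 normalized counts in untreated libraries, 6548, 6889 and 6386 at 8 h, 7353, 8031 and 8747 at 24 h, and 4928, 3892 and 4629.5 at 48 h. The 8 h and 48 h libraries lay below all untreated ones, and 1 of the 24 h libraries lay within the untreated range. Against untreated cells, SRSF5 differed by -0.40 ± 0.09 on the log2 scale at 8 h (limma adjusted p = 0.0058), -0.12 ± 0.09 at 24 h (limma adjusted p = 0.301) and -0.97 ± 0.09 at 48 h (limma adjusted p = 6.62e-07). The 8 h fall was not called with equal totals (-0.24) or quantile normalization (-0.19). The rise between 8 and 24 h was 0.28 ± 0.09 (limma adjusted p = 0.0478), close enough to the threshold that leaving out any of 9 of the 12 libraries in turn, or fitting a replicate block, lost the call.

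SRSF7 and SRSF10 fell at 8, 24 and 48 h against untreated cells. SRSF7, which has a zinc knuckle beside its RNA-recognition motif and takes part in mRNA export, averaged 12139 ± 402 normalized counts in untreated cells, 9583 ± 243 after 8 h, 7751 ± 919.6 after 24 h and 7853 ± 678 after 48 h (SD, n = 3 each). SRSF10, which represses splicing when dephosphorylated, averaged 10399 ± 113, 8227 ± 97.6, 5893 ± 427 and 6427 ± 270.2 in the same order. All libraries of each treated time lay below all untreated libraries in both genes, and 24 and 48 h overlapped. At 8 h neither was called with equal totals (-0.18 for each) or quantile normalization (-0.14 for SRSF7 and -0.15 for SRSF10). The 24 h log2 fold changes were -0.65 ± 0.09 for SRSF7 (limma adjusted p = 6.22e-05) and -0.82 ± 0.07 for SRSF10 (limma adjusted p = 1.86e-06). The direction of the step from 24 to 48 h, which was not called (0.02 for SRSF7 and 0.13 for SRSF10), depended on the scaling: with equal totals both fell further (-0.36 and -0.25), as with quantile normalization (-0.33 and -0.17), and with median centring SRSF10 rose (0.32).

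SRSF4 and SRSF11 were the only SRSF members that rose over untreated cells, both at 48 h. SRSF11, an SR-family protein that associates with the U2 auxiliary factor, had 8480.2, 8680.4 and 9324 normalized counts in untreated libraries, 7485, 8172 and 8335 at 8 h, 9369, 7787 and 7766 at 24 h, and 13118, 13955 and 13045 at 48 h. The 48 h libraries were above every other library. The rise was 0.60 ± 0.08 on the log2 scale against untreated cells (limma adjusted p = 2.7e-05).

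SRSF4, a large SR protein with a long arginine-serine tail, had 6997, 6916 and 8010.4 normalized counts in untreated libraries, 7346, 7385 and 7272 at 8 h, 8477, 7430.0 and 7466 at 24 h, and 8925, 8821 and 9603 at 48 h. Its 48 h libraries also lay above all others, by a smaller margin. The rise over untreated cells was 0.32 ± 0.08 (limma adjusted p = 0.00257), and with equal totals it was 0.13 and not called. The step from 24 to 48 h was 0.23 ± 0.08 (limma adjusted p = 0.0257) and turned to -0.15 with equal totals and -0.10 with quantile normalization. It was also not called without 24 h replicate 2 (0.20), 24 h replicate 3 (0.20) or 48 h replicate 3 (0.19).

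SRSF9, a short SR protein, was nearly level, at 8687 ± 457 normalized counts in untreated cells, 8334 ± 138 after 8 h, 7968 ± 323 after 24 h and 7536 ± 416 after 48 h. Its fall at 48 h was -0.21 ± 0.07 (limma adjusted p = 0.0172), and without untreated replicate 3 (-0.16) or 48 h replicate 2 (-0.17) it was not called. SRSF12 was listed at 0 to 14.4 normalized counts in the 12 libraries and was not called in any comparison.

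**Figure D3:**
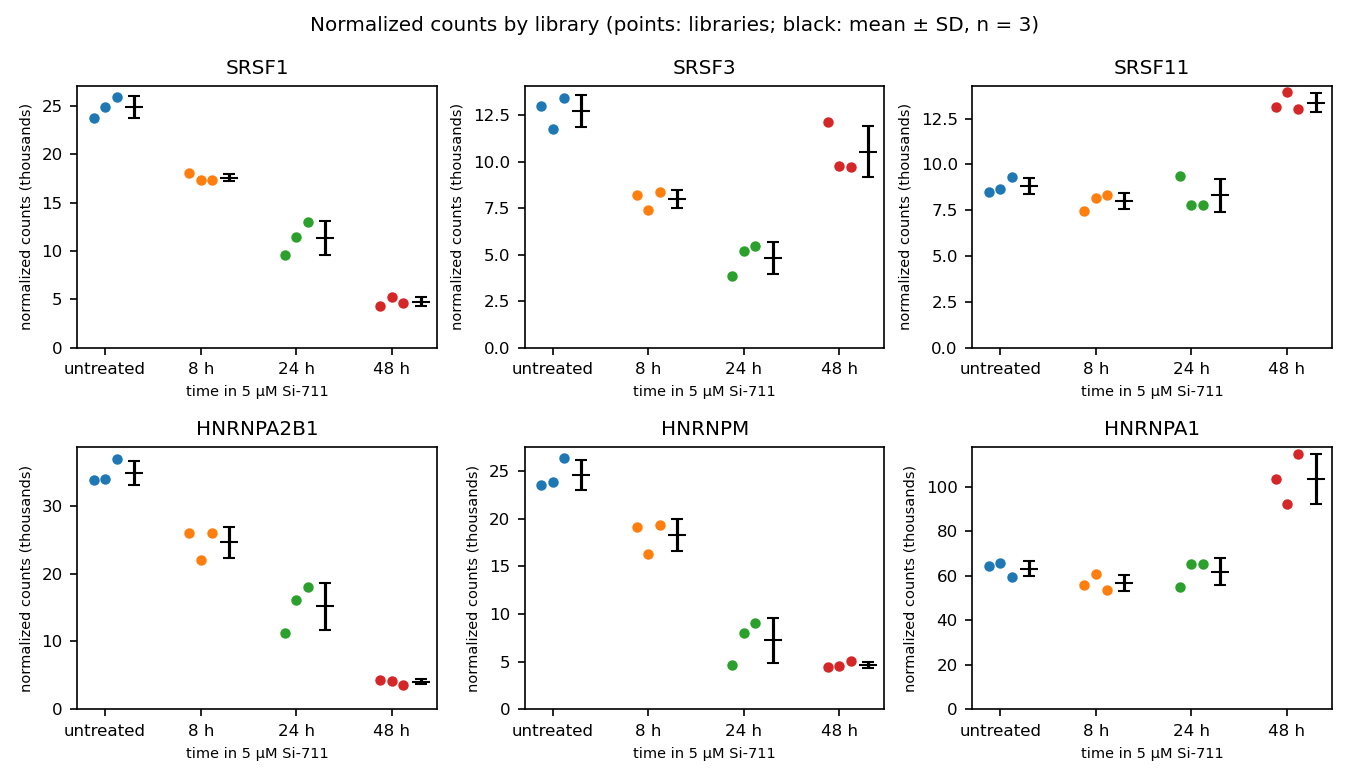
Normalized counts of selected SRSF and hnRNP members in each library, with untreated cells first and then 8, 24 and 48 h in Si-711, as points, with the mean ± SD in black (n = 3). SRSF1 and HNRNPA2B1 lie lower at each time, while SRSF3 is lowest at 24 h, at 3843 to 5469 normalized counts, and lies at 9727 to 12132 at 48 h.

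Among hnRNP genes, HNRNPA2B1 fell most. HNRNPA2B1, which encodes a pair of isoforms that bind RNA in splicing, transport and microRNA processing, lies on chromosome 7 (26173057 to 26201529, minus strand, ENSG00000122566). It had 33839, 34022 and 36993 normalized counts in untreated libraries, 25959.8, 21992 and 25974 at 8 h, 11255, 16170.0 and 18064 at 24 h, and 4305, 4139 and 3613 at 48 h. No library of any time overlapped the group before it, as for SRSF1. The log2 fold change was -0.51 ± 0.14 after 8 h (limma adjusted p = 0.0178), -1.23 ± 0.14 after 24 h (limma adjusted p = 1.68e-05) and -3.12 ± 0.14 after 48 h (limma adjusted p = 2.33e-09), an 8.71-fold lower value. The 8 h fall was not called with equal totals (-0.35), with quantile normalization (-0.25), without untreated replicate 3 (-0.47) or without 8 h replicate 2 (-0.43).

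HNRNPM, which binds GU-rich RNA and is known for its part in splicing during epithelial-mesenchymal transition, fell between 8 and 24 h and was lower again at 48 h. HNRNPM (ENSG00000099783, chromosome 19, 8444767 to 8489114, plus strand) had 23498, 23867 and 26387 normalized counts in untreated libraries, 19155, 16302 and 19371 at 8 h, 4615, 7951 and 9091 at 24 h, and 4453, 4535 and 5031 at 48 h. The 24 h libraries were all below the 8 h ones, with replicate 1 lowest, and that library lay among the 48 h values. The log2 fold change was -0.43 ± 0.18 after 8 h (limma adjusted p = 0.101), -1.82 ± 0.18 after 24 h (limma adjusted p = 6.41e-06) and -2.40 ± 0.18 after 48 h (limma adjusted p = 1.08e-07), the last a 5.26-fold lower value. Without 24 h replicate 1 the 24 h value was -1.53, and the step from 8 to 24 h was -1.10 instead of -1.39. The step from 24 to 48 h was -0.57 ± 0.18 (limma adjusted p = 0.019). It was -0.95 with equal totals, -0.86 with quantile normalization and -0.87 without 24 h replicate 1, and it was not called without 24 h replicate 2 (-0.47), 24 h replicate 3 (-0.38) or 48 h replicate 1 (-0.54), nor with median centring (-0.38).

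HNRNPAB, an A/B-type protein linked to mRNA transport and to APOBEC1-dependent editing, had 18409, 18549 and 20974 normalized counts in untreated libraries, 13981, 13309.6 and 14332 at 8 h, 10211, 10998 and 12537 at 24 h, and 5325, 5729 and 6629 at 48 h. Each time lay wholly below the one before. The step from 8 to 24 h was -0.31 ± 0.10 (limma adjusted p = 0.0434). Its call was lost with no filter on low values and with the compared groups fitted alone. It was also lost without 24 h replicate 1 (-0.24), among other single libraries. The 8 h fall against untreated cells, -0.48 ± 0.10 (limma adjusted p = 0.00313), was -0.21 and not called with quantile normalization. The 48 h log2 fold change was -1.72 ± 0.10 (limma adjusted p = 8.58e-09), and the step from 24 to 48 h was -0.93 ± 0.10 (limma adjusted p = 4.33e-06). HNRNPA0, an A-type protein that binds AU-rich 3′ ends, HNRNPH2, which binds G-rich tracts, and HNRNPUL1, a relative of HNRNPU, also fell by 24 h and again by 48 h. Their 48 h log2 fold changes were -1.15 ± 0.11 for HNRNPA0 (limma adjusted p = 5.74e-07), -1.14 ± 0.10 for HNRNPH2 (limma adjusted p = 2.45e-07) and -0.53 ± 0.08 for HNRNPUL1 (limma adjusted p = 3.44e-05). The second step of HNRNPUL1, -0.25 ± 0.08, was not called with median centring (-0.050) or without 24 h replicate 3 (-0.20) or 48 h replicate 2 (-0.20), and that of HNRNPH2 was not called with median centring (-0.22). At 24 h, HNRNPUL1 was not called with equal totals (-0.098) or quantile normalization (-0.034), nor HNRNPA0 with quantile normalization (-0.26). Under the authors' scaling, 6 of the 13 hnRNP genes that had fallen at 24 h fell again, against 1 of the 6 SRSF genes and 36.2% of the 3813 genes of the whole table that fell at 24 h. With equal totals the counts were 10 of 11 hnRNP and 3 of 6 SRSF genes, with quantile normalization 9 of 10 and 3 of 6, and with median centring 4 of 14 and 2 of 9. The share of the whole table with this course was computed only under the authors' scaling. Between 24 and 48 h, equal totals called 6607 of 15424 genes as falls, against 4184 under the authors' scaling.

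HNRNPH3 and HNRNPA1L2 were not called at 24 h and fell between 24 and 48 h, as SRSF5 did. HNRNPH3, a small member of the H/F group, had 12203, 12072 and 12477 normalized counts in untreated libraries, 9748, 9514 and 9855 at 8 h, 9456, 10838 and 12357 at 24 h, and 4085, 5009 and 4649 at 48 h. Its 24 h libraries overlapped both the 8 h and the untreated ones, and its 48 h libraries lay below all others. Log2 fold changes were -0.34 ± 0.10 after 8 h (limma adjusted p = 0.0195), -0.18 ± 0.10 after 24 h (limma adjusted p = 0.143) and -1.42 ± 0.10 after 48 h (limma adjusted p = 3.57e-08). The 8 h call was lost with equal totals (-0.17), with quantile normalization (-0.13), and without untreated replicate 1 (-0.34), untreated replicate 3 (-0.32) or 8 h replicate 2 (-0.32).

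HNRNPA1L2, an expressed copy of HNRNPA1, had 281, 231 and 246 normalized counts in untreated libraries, 223, 231 and 278 at 8 h, 158, 225 and 213 at 24 h, and 70.8, 89.0 and 100.1 at 48 h. Only the 48 h libraries lay below those of all other times. The 48 h log2 fold change was -1.54 ± 0.20 (limma adjusted p = 1.69e-05). Reads of HNRNPA1, HNRNPA1L2 and HNRNPA1L3 can be exchanged when they are divided among near-identical transcripts, so the values of the copies are uncertain. HNRNPUL2-BSCL2, a readthrough gene that shares sequence with HNRNPUL2 and is equally uncertain, fell at 48 h by 0.87 on the log2 scale (limma adjusted p = 3.76e-05). This readthrough gene counts as a member by its GENCODE type, but its only GENCODE transcript is annotated to nonsense-mediated decay. RefSeq lists it as a long noncoding RNA. HNRNPUL2 itself was not called against untreated cells at any time, with 4013 to 4697 normalized counts in untreated cells, 4326 to 5438 after 8 h, 4929 to 5328 after 24 h and 3628 to 4445 after 48 h. It fell by 0.32 on the log2 scale between 24 and 48 h (limma adjusted p = 0.0201), a call lost with median centring (-0.12) and without 24 h replicate 2 (-0.31), 24 h replicate 3 (-0.29) or 48 h replicate 1 (-0.22).

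Another 5 hnRNP genes fell by 24 h and had no call between 24 and 48 h under the authors' scaling, whereas all 5 fell further with equal totals (-0.46 to -0.25): HNRNPH1, HNRNPF, HNRNPD, HNRNPK and HNRNPU. HNRNPH1, which binds G-tracts near splice sites, had the largest fall of them and most of it was there at 8 h. It averaged 30328 ± 677 normalized counts in untreated cells, 18855 ± 897 after 8 h, 15817 ± 2572 after 24 h and 15813 ± 1047 after 48 h, and its log2 fold change at 8 h was -0.69 ± 0.10 (limma adjusted p = 0.000448). HNRNPD, the AU-rich element binding protein of mRNA decay, had a 24 h log2 fold change of -0.52 ± 0.09, and HNRNPU, a nuclear matrix protein that binds chromatin and RNA, had -0.48 ± 0.10. HNRNPF, close to HNRNPH1 in sequence, had -0.55 ± 0.07 at 24 h, and HNRNPK, a KH-domain protein that binds C-rich RNA, had -0.42 ± 0.07. At 8 h HNRNPF (-0.23) and HNRNPK (-0.24) were called as falls, yet with quantile normalization their 8 h values were 0.062 and 0.053. Both 8 h calls were also lost with equal totals (-0.070 for HNRNPF and -0.074 for HNRNPK). At 24 h quantile normalization gave -0.17 for HNRNPU, not called, and smaller falls for HNRNPD (-0.24), HNRNPF (-0.25) and HNRNPK (-0.17). Equal totals gave -0.29 for HNRNPU, -0.34 for HNRNPD, -0.37 for HNRNPF and -0.23 for HNRNPK.

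HNRNPDL and HNRNPC fell at 24 h and rose between 24 and 48 h, the course of SRSF3, SRSF6 and SRSF2. HNRNPDL, a paralog of HNRNPD that regulates its own splicing, had 15439.6, 14676 and 15672 normalized counts in untreated libraries, 12575, 12459.9 and 12624 at 8 h, 6820.4, 8041 and 8560.2 at 24 h, and 11714, 12523 and 13659.8 at 48 h. The 24 h libraries were the lowest, and the 48 h libraries lay between them and the untreated ones. Log2 fold changes were -0.97 ± 0.09 at 24 h against untreated cells (limma adjusted p = 2.65e-06) and 0.70 ± 0.09 at 48 h against 24 h (limma adjusted p = 1.84e-05), the second value being 0.32 with equal totals and 0.33 with quantile normalization and still called. Its fall at 48 h against untreated cells was -0.28 ± 0.09 (limma adjusted p = 0.0124) and was not called without 48 h replicate 1 (-0.22).

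HNRNPC, which binds uridine tracts and packages nascent transcripts, had 35110.2, 34511 and 35425 normalized counts in untreated libraries, 33459.8, 29024 and 33502 at 8 h, 29248, 30656 and 29729.6 at 24 h, and 39823, 33212 and 36785 at 48 h. The 24 h libraries lay below the untreated and the 48 h ones, which overlapped each other. Its log2 fold change was -0.23 ± 0.08 at 24 h against untreated cells (limma adjusted p = 0.0326), and with quantile normalization it was 0.040. The 24 h call was also lost with equal totals (-0.045), with no filter on low values (-0.23) and without any one of the 6 libraries compared (-0.25 to -0.21). The step from 24 to 48 h was 0.29 ± 0.08 (limma adjusted p = 0.00873) and turned to -0.088 with equal totals and -0.34 with quantile normalization. Of the genes that fell at 24 h, 3 of 6 SRSF and 2 of 13 hnRNP genes rose between 24 and 48 h, against 27.2% of the 3813 genes of the whole table. The counts were 2 of 6 and 1 of 11 with equal totals, 2 of 6 and 1 of 10 with quantile normalization and 5 of 9 and 5 of 14 with median centring. Here too the share of the whole table was computed only under the authors' scaling.

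HNRNPA1, the classical antagonist of SRSF1 at splice sites, rose over untreated cells at 48 h under the authors' scaling, but the rise was not called with quantile normalization. HNRNPA1 (ENSG00000135486, chromosome 12, 54280193 to 54287088, plus strand) had 64240.0, 65668 and 59293 normalized counts in untreated libraries, 55709, 60600.3 and 53588 at 8 h, 54722, 65006 and 65387 at 24 h, and 103484, 92311 and 114450.5 at 48 h. The earlier groups overlapped, and the 48 h libraries lay above every other library. The log2 fold change was -0.16 ± 0.10 after 8 h (limma adjusted p = 0.269), -0.03 ± 0.10 after 24 h (limma adjusted p = 0.798) and 0.71 ± 0.10 after 48 h (limma adjusted p = 2.69e-05). With quantile normalization the 48 h value was 0.15, and the step from 24 to 48 h, which was 0.74 ± 0.10 (limma adjusted p = 3.4e-05), was -0.14.

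HNRNPA1L3, a further copy of HNRNPA1 with few reads, was the other hnRNP gene that rose at 48 h. It had 69.3, 54.8 and 51.8 normalized counts in untreated libraries, 83.0, 55.7 and 63.5 at 8 h, 61.4, 60.8 and 62.0 at 24 h, and 116, 97.7 and 113 at 48 h. The 48 h libraries lay above all others, and the log2 fold change was 0.89 ± 0.25 (limma adjusted p = 0.00635). HNRNPA1L2 and HNRNPA1L3 thus had 48 h log2 fold changes of opposite sign.

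Set against each other within a library, HNRNPA1 and SRSF1 moved apart. The ratio of their normalized counts was 2.70, 2.63 and 2.28 in untreated libraries, 3.09, 3.48 and 3.09 at 8 h, 5.73, 5.70 and 5.01 at 24 h, and 23.8, 17.5 and 24.5 at 48 h. Each time lay above the one before in all libraries, and the means were 2.54 ± 0.225, 3.22 ± 0.228, 5.48 ± 0.407 and 21.9 ± 3.86 (SD, n = 3 each). Within the hnRNP family, the ratio of HNRNPA1 to HNRNPA2B1 averaged 1.81 ± 0.181, 2.32 ± 0.378, 4.17 ± 0.634 and 26.00 ± 4.99 in the same order. These ratios are of counts that are not divided by transcript length, so only their change between libraries can be read. They are descriptions of pairs picked for their place in the families and their values.

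The remaining hnRNP members were not called against untreated cells. HNRNPA3, an A/B-type protein, averaged 20954 ± 546 normalized counts in untreated cells, 18083 ± 891 after 8 h, 18719.8 ± 2491 after 24 h and 24047 ± 5093 after 48 h, where replicate 3 had 29927 against 21014 and 21199.6 in the others. Its step from 24 to 48 h was 0.35 ± 0.13 (limma adjusted p = 0.033), was 0.18 and not called without 48 h replicate 3, and turned to -0.028 with equal totals and -0.14 with quantile normalization. It was also not called without 24 h replicate 1 (0.26) or 24 h replicate 2 (0.33). HNRNPLL, a regulator of CD45 splicing in lymphocytes, averaged 2856 ± 162 normalized counts in untreated cells and 3210.1 ± 248 at 48 h, with a log2 fold change of 0.17 ± 0.09 (limma adjusted p = 0.129). HNRNPR was listed at 0 to 41.2 normalized counts, with 0 in 5 of 12 libraries, and no direction can be read from it. HNRNPCL4 stayed below 13 normalized counts, HNRNPCL1 was listed at 0 in all 12 libraries, and neither was tested. SRSF8, HNRNPL, HNRNPCL2 and HNRNPCL3 were not among the protein-coding genes listed, so they could not be analysed here.

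**Figure D4:**
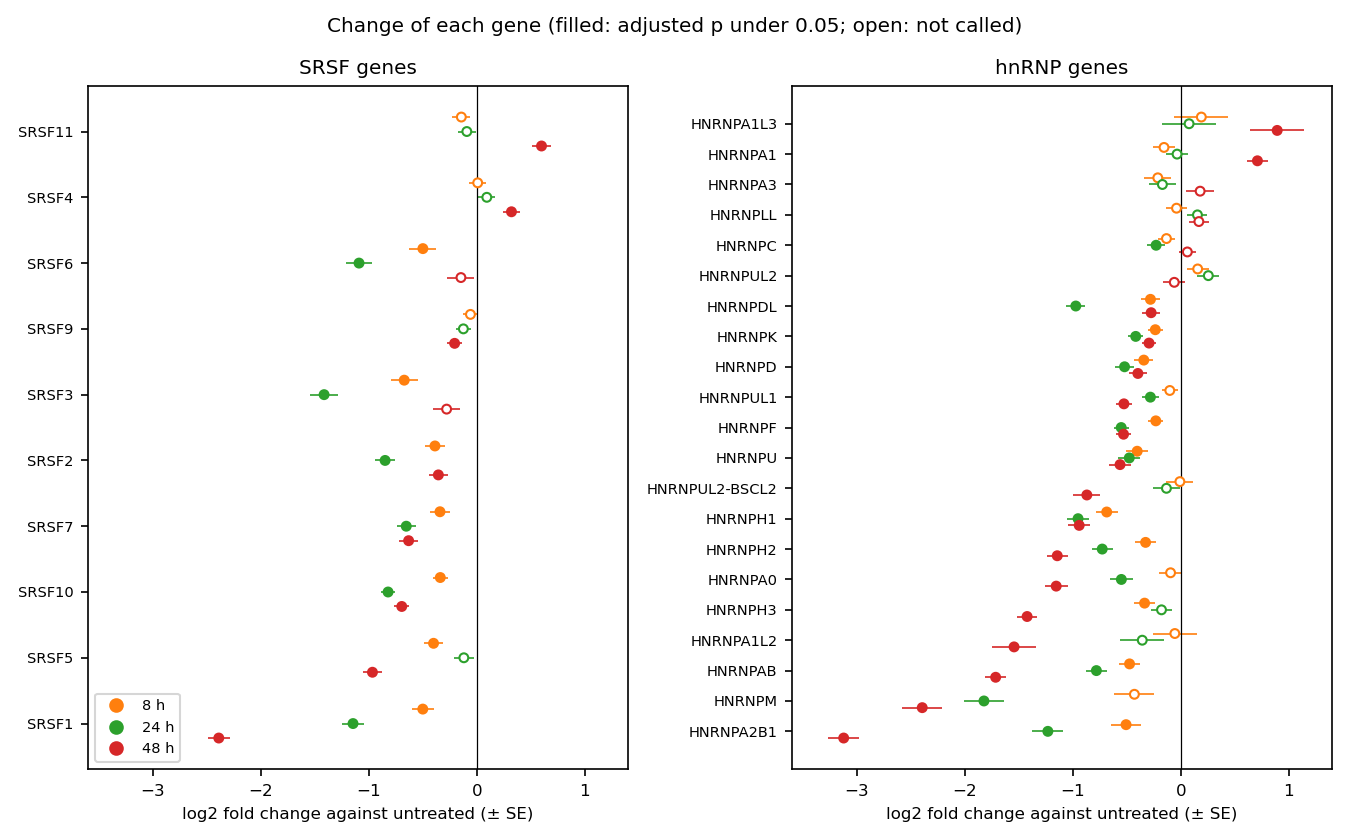
Log2 fold change against untreated cells of each member with a mean of at least 50 normalized counts at 8, 24 and 48 h, with standard errors, where filled points passed the test (limma, adjusted p under 0.05). At 48 h the SRSF members run between -2.39 for SRSF1 and 0.60 for SRSF11 among those called, and the hnRNP members between -3.12 for HNRNPA2B1 and 0.89 for HNRNPA1L3.

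A few members are neighbours on a chromosome. HNRNPD and HNRNPDL lie 48061 bases apart on chromosome 4, and under the authors' scaling both fell at 8, 24 and 48 h against untreated cells. Neither 8 h call was kept with equal totals (-0.18 for HNRNPD and -0.12 for HNRNPDL) or quantile normalization (-0.080 and -0.056). Between 24 and 48 h HNRNPDL rose by 0.70 while HNRNPD had a log2 change of 0.12 ± 0.09 (limma adjusted p = 0.251). HNRNPLL and SRSF7 lie 140013 bases apart on chromosome 2, and SRSF7 fell at all 3 times while HNRNPLL was called at none. HNRNPUL2 and HNRNPUL2-BSCL2 overlap on chromosome 11, and both fell between 24 and 48 h, by 0.32 and by 0.74 on the log2 scale. Falls at 8, 24 and 48 h were found for 4 SRSF and 9 hnRNP members under the authors' scaling, against 9.20% of all genes tested. These counts rest on 8 h calls, most of which were lost with equal totals.

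The counts of the other splicing lists below can be set beside the calls over all genes under the same scaling. Under the authors' scaling these were 13% rises and 15.2% falls at 8 h, 22.9% and 24.7% at 24 h, and 32.3% and 33.8% at 48 h. Of 15424 genes, equal totals gave 2887 rises and 1083 falls at 8 h, 4761 and 2657 at 24 h, and 4146 and 6154 at 48 h. Quantile normalization gave 1869 and 1669, 3413 and 3604, and 5034 and 4922 in the same order. No difference between lists was tested. Of 24 tested SR-related proteins and kinases, none rose and 7 fell at 8 h, 2 rose and 12 fell at 24 h, and 14 rose and 7 fell at 48 h, and with equal totals 2 rose and 1 fell at 8 h, 8 rose and 8 fell at 24 h, and 12 rose and 8 fell at 48 h. With quantile normalization the counts were 1 and 1 at 8 h, 5 and 7 at 24 h and 14 and 7 at 48 h. CLK1, a kinase that phosphorylates SR proteins, averaged 1707 ± 84.5 normalized counts in untreated cells, 1602 ± 154 after 8 h, 2325 ± 850.1 after 24 h and 7836 ± 1159.7 after 48 h, a log2 fold change at 48 h of 2.19 (limma adjusted p = 3.13e-07). CLK2, its paralog, fell at 48 h to 208 ± 151 normalized counts, against 777 ± 23.9 in untreated cells, a log2 fold change of -2.14 (limma adjusted p = 0.000173). TRA2B, an SR-like splicing activator, averaged 11554 ± 481 normalized counts in untreated cells, 8646 ± 561 after 8 h, 5629 ± 665 after 24 h and 1798 ± 173 after 48 h, with a 48 h log2 fold change of -2.69 (limma adjusted p = 9.75e-10). The 8 h count of this list was 3 to 4 without untreated replicate 1, untreated replicate 3, 8 h replicate 2 or 8 h replicate 3.

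Of 34 tested hnRNP-like proteins and partners, 1 rose and 18 fell at 8 h, 2 rose and 24 fell at 24 h, and 11 rose and 22 fell at 48 h. With equal totals 2 rose and 9 fell at 8 h, and with quantile normalization 3 rose and 6 fell at 8 h and 7 rose and 18 fell at 24 h. Their median log2 fold change at 48 h was -0.41, and that of the SR-related list was 0.52, with -0.05 over all genes. SYNCRIP, a cytoplasmic relative of HNRNPR, fell to 1193 ± 169 normalized counts at 48 h, against 6049 ± 637 in untreated cells, by 2.35 on the log2 scale (limma adjusted p = 2.98e-07). RBFOX2, which binds UGCAUG and acts by position around exons, fell by 1.79 at 48 h on that scale (limma adjusted p = 2.57e-07). SFPQ, a paraspeckle protein, fell by 1.56 at 24 h (limma adjusted p = 1.8e-07) and by 1.26 at 48 h (limma adjusted p = 6.94e-08). Without 8 h replicate 2, the 8 h count of this list was 12.

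Core spliceosome genes were called only as falls at 8 and 24 h under the authors' scaling. Of 26 tested U1, U2 and Sm proteins, 14 fell at 8 h and 15 at 24 h with no rise, and at 48 h 12 rose and 11 fell. Of 30 tested proteins of the tri-snRNP and the PRP19 complex, 11 fell at 8 h and 23 at 24 h with no rise, and at 48 h 9 rose and 11 fell (30.0% and 36.7%), close to the shares of all genes. For the U1, U2 and Sm list, equal totals gave 3 falls at 8 h and 3 rises and 9 falls at 24 h, and quantile normalization gave 1 rise and 2 falls at 8 h and 6 rises and 9 falls at 24 h. For the tri-snRNP list, 6 fell at 8 h and 19 at 24 h with equal totals. With equal totals the 48 h splits were 9 rises and 13 falls for the first list and 8 rises and 17 falls for the second. SF3B4, a subunit of the U2 particle, fell by 1.27 at 24 h on the log2 scale (limma adjusted p = 1.64e-06), the helicase DDX46 fell by 1.10 at 48 h (limma adjusted p = 4.77e-08), and PUF60, which acts with U2AF at 3′ splice sites, fell by 2.41 at 48 h (limma adjusted p = 2.1e-05). PRPF8, the scaffold at the catalytic core, fell by 1.44 at 48 h (limma adjusted p = 5.05e-08), EFTUD2, its GTPase partner, by 1.26 (limma adjusted p = 1.72e-06), and the helicase DHX16 by 1.25 (limma adjusted p = 6.41e-06). The 8 h count of the U1, U2 and Sm list was 9 without untreated replicate 2, 7 without untreated replicate 3 and 9 without 8 h replicate 3.

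Nonsense-mediated decay removes transcripts with premature stops, and the exon junction complex marks them. Of 16 tested genes of the exon junction complex and nonsense-mediated decay, 9 fell at 8 h and 13 at 24 h with no rise, and at 48 h 6 rose and 8 fell, or 3 rose and 8 fell with equal totals. Equal totals gave 2 falls at 8 h and 1 rise and 6 falls at 24 h, and quantile normalization gave 2 falls at 8 h and 1 rise and 9 falls at 24 h. SMG8, a regulator of the SMG1 kinase, fell by 1.70 at 48 h on the log2 scale (limma adjusted p = 8.01e-08), and NCBP1, the large subunit of the nuclear cap-binding complex, fell by 1.47 (limma adjusted p = 1.06e-08). UPF3A, a paralog of the decay factor UPF3B, rose at 48 h to 2647 ± 174 normalized counts, against 1345 ± 121 in untreated cells, a log2 fold change of 0.98 (limma adjusted p = 3.72e-06). The 8 h count of this list was 3 to 5 without untreated replicate 2, untreated replicate 3 or any one of the 8 h libraries.

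**Figure D5:**
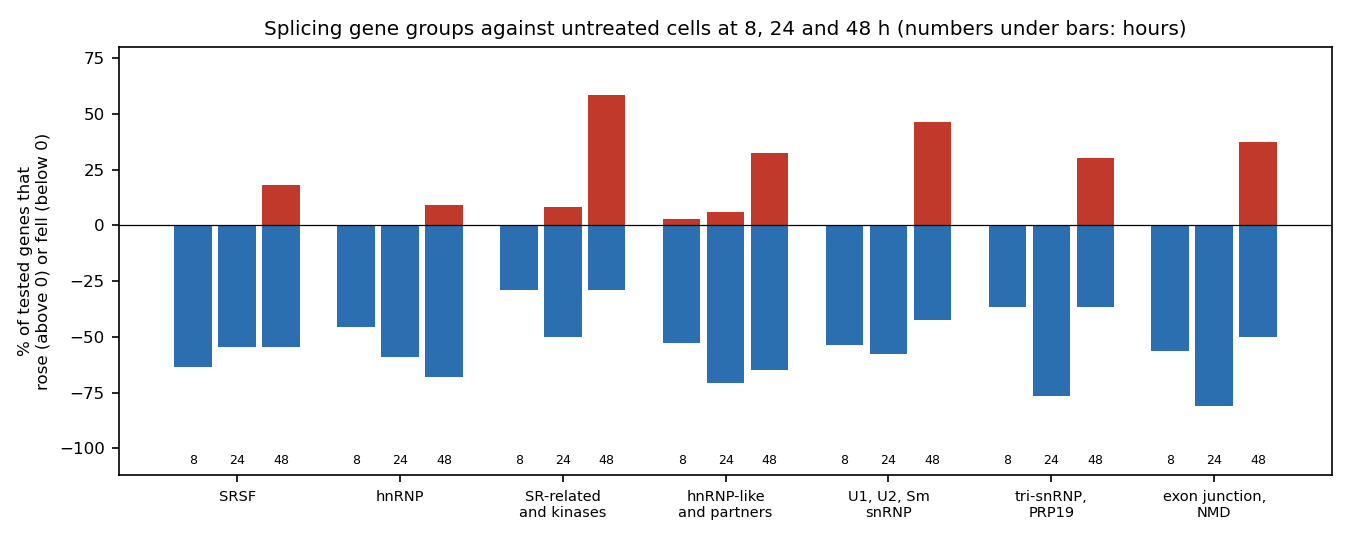
Percentage of tested genes called as rises (upward bars) and falls (downward bars) at 8, 24 and 48 h against untreated cells, in the SRSF and hnRNP families and in the other splicing lists. Under the authors' scaling falls outnumber rises in every list shown at 8 and 24 h, and at 48 h rises outnumber falls among SR-related proteins and kinases, 14 to 7, or 12 to 8 with equal totals.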

How the data were processed

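Polyadenylated RNA of 12 K-562 libraries was sequenced strand-specifically by a sequencing company, per the labels. The deposited values are a signal: counts per gene after normalization by the authors with DESeq2. The submitters' processing notes also name cutadapt, Salmon and GRCh38, without versions. Their gene annotation is not given in the sources. The values are not whole, and 37.7 to 68.8% of low values lay within 0.1 of a whole multiple of a library's step, so whole reads were not recovered.

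Symbols came from a gene name table (50026 identifiers) or GENCODE release 29 (267), which gave types and coordinates, and 819 had none. Genes reaching 10 in 3 or more libraries were tested (15424) as log2(value + 1) with limma 3.58.1 in R 4.3.3, in 1 fit over 4 groups with a prior variance that follows the mean (5.08 prior degrees of freedom). Tests were two-sided, with Benjamini-Hochberg adjustment over all genes tested per comparison. Fold changes refer to this scale, which understates changes of low genes. The fit was also run on simulated independent values with few changed genes, a case that does not test the choice of scaling.

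The members and lists were chosen with earlier results of these data known. Values per library are given for the 5 members of each family with the largest called change, members called against their family's direction, the 2 with the highest mean, SRSF1 and HNRNPA1, and up to 3 genes per other list; HNRNPDL and the HNRNPA1 ratios were added after their values were seen. Alternatives were pseudocounts of 0.5 and 8, no filter, a mean of at least 50, equal totals, median centring, quantile normalization, a replicate block, each library left out, a threshold of 0.01, a robust prior and a fit of the compared groups alone; on the other lists they were added after seeing the data. Salmon divides reads of near-identical genes by estimation. Promoters came from RefSeq.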

Additional observations from a re-analysis of the deposited data

Results flagged for a closer look

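The following members fell at 24 h against untreated cells and then rose at 48 h against 24 h, so that the direction of their change differed between times. The log2 change at 48 h against 24 h was 1.13 for SRSF3, 0.94 for SRSF6, 0.70 for HNRNPDL, 0.49 for SRSF2 and 0.29 for HNRNPC. The HNRNPC step turned to -0.088 with equal totals and -0.34 with quantile normalization, and the SRSF2 step was not called under either.

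Rows outside the members also changed. Of 122 rows with a matching symbol that are not protein-coding, 8 were tested. At 48 h, HNRNPA1P16 had a log2 fold change of -2.28 against untreated cells (limma adjusted p = 0.000135). HNRNPLP2 had -2.15 (limma adjusted p = 0.0171) and HNRNPD-DT had -1.68 (limma adjusted p = 0.00425). HNRNPCP4, a processed pseudogene of HNRNPC (ENSG00000263179, chromosome 16, 11242653 to 11243552), had 49.6, 65.9 and 77.2 normalized counts in untreated libraries, 155, 158 and 143 at 8 h, 212, 182 and 216 at 24 h, and 31.7, 48.5 and 19.9 at 48 h. Its log2 fold change against untreated cells was 1.25 at 8 h (limma adjusted p = 0.00846), 1.67 at 24 h (limma adjusted p = 0.000558) and -0.99 at 48 h (limma adjusted p = 0.011). The 8 h and 24 h libraries lay above, and the 48 h libraries below, all untreated ones. Reads of such a copy can be exchanged with those of the parent gene.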

How the results depend on the processing

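Of 167 called results on single genes, 97 of them on members, all kept their direction and call with pseudocounts of 0.5 and 8, a robust prior and a mean of at least 50; 158 did with no filter and 158 with the compared groups alone, 160 with median centring, 140 with equal totals, 132 with quantile normalization and 134 at a threshold of 0.01. At 8 h, 2 SRSF genes were called with equal totals and 1 with quantile normalization, against 7, and 2 hnRNP genes with equal totals, 2 with quantile normalization and 2 at a threshold of 0.01, against 10. Over all genes, 3970 were called at 8 h with equal totals, 3538 with quantile normalization and 2366 at that threshold, against 4347. For 24 h against 8 h, 4 hnRNP genes were called at a threshold of 0.01, against 7, with 1007 of all genes against 2798. The SRSF minus hnRNP median log2 fold change was -0.12 at 8 h, -0.21 at 24 h and 0.27 at 48 h over all tested members. It was -0.14 at 8 h with quantile normalization, and at 24 h -0.32 for a mean of at least 50 and -0.12 with quantile normalization. Quantile normalization reversed HNRNPC at 24 h (0.040), HNRNPK (0.053) and HNRNPF (0.062) at 8 h, and, for 48 h against 24 h, HNRNPC (-0.34), SRSF4 (-0.10), HNRNPA1 (-0.14), HNRNPA3 (-0.14) and SFPQ (-0.022). Equal totals reversed HNRNPC (-0.088), SRSF4 (-0.15), HNRNPA3 (-0.028) and SFPQ (-0.076) for 48 h against 24 h. The cause was not tested. Leaving out 1 library at a time, SRSF calls numbered 7 to 7 (8 h), 6 to 6 (24 h), 7 to 9 (48 h), 5 to 7 for 24 h against 8 h and 6 to 7 for 48 h against 24 h. The hnRNP calls numbered 4 to 11, 12 to 14, 16 to 17, 5 to 9 and 12 to 15 in the same order. The family difference was then between -0.15 and -0.091 (8 h), between -0.30 and -0.19 (24 h) and between 0.21 and 0.36 (48 h). Deviations of same-numbered libraries correlated at -0.07 to 0.142 and those of other pairs at -0.162 to 0.112. The ranges overlap, so a weak pairing by number cannot be told from none. With a replicate block, 7, 6 and 8 SRSF and 10, 14 and 17 hnRNP genes were called at 8, 24 and 48 h, and of the 167 results only the SRSF5 rise from 8 to 24 h (0.28) lost its call. With 3 libraries a group, small changes such as those at 8 h are near what could be called.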
